A study of Mus musculus with 4 samples.

Results

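Lyz1, Ang4, Mmp7, Mptx2 and Itln1 are 5 genes, none of them an alpha-defensin, whose products are stored in Paneth cell granules or act on their contents. They were taken by symbol from the 32285 genes counted in single cells of mouse small-intestinal crypts, and all 5 matched a single entry. The series sets the intestinal epithelium of sleep-deprived mice against that before the deprivation. It holds 4 libraries, of which 2 carry the label 2D and 2 the label 0D, read here as after and before sleep deprivation; the labels do not spell out D. The labels give no strain, sex, age or manner of sleep deprivation, and do not tie libraries to animals. The p-values therefore measure only how far these libraries lie apart, and that spread may be technical. Crypts of every library were released with EDTA and strained. Their cells were captured in droplets by 10x Genomics 3′ chemistry, where each unique molecular identifier (UMI) marks 1 captured transcript.

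Paneth cells sit at the base of small-intestinal crypts and release granules of antimicrobial proteins into the lumen. Alpha-defensins (Defa genes), small peptides that damage microbial membranes, are their most abundant product. The 5 genes described here supply other parts of the granule. Lyz1 encodes the Paneth cell lysozyme, which cuts bacterial cell wall peptidoglycan. Ang4 encodes angiogenin 4, a secreted ribonuclease-family protein with antimicrobial activity. Mmp7 encodes matrilysin, the metalloproteinase that in mice cleaves pro-alpha-defensins into their active form. Mptx2 encodes a mucosal pentraxin, and Itln1 encodes intelectin 1, a lectin that binds microbial sugars. Goblet cells, the mucus-secreting relatives of Paneth cells, are known to make some intestinal lectins and antimicrobial proteins too.

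The genes lie on 4 chromosomes, in GRCm38 coordinates of GENCODE M21. Lyz1 (ENSMUSG00000069515) spans chr10:117287797-117292868 on the minus strand, 5475 bases from its paralog Lyz2, the lysozyme gene of macrophages. Ang4 (ENSMUSG00000060615) spans chr14:51763878-51773590 and Mmp7 (ENSMUSG00000018623) chr9:7692090-7699585. Mptx2 (ENSMUSG00000079180) spans chr1:173274382-173277777 and Itln1 (ENSMUSG00000038209) chr1:171518122-171535294. The 250 bases before the annotated start of each member are shown because the members follow each other closely across cell classes. Those of Lyz2 and Mptx1 are shown because transcripts of these paralogs were rare in the same cells. For Itln1 the 1 window listed did not match the RefSeq gene start. It adjoins the GENCODE span given above. The windows of Mptx2 and Lyz2 match the RefSeq gene start but overlap the 5′ end of the GENCODE span of their gene. The sequences are from RefSeq (GRCm38.p6), 5′ to 3′ along the gene's strand. Capitals mark matches on either strand to TATAA, the core of the TATA box (its complement reads TTATA), and to CTTTG, the core bound by TCF/LEF factors of the Wnt pathway (complement CAAAG). The windows are chr10:117292869-117293118 (minus) for Lyz1, chr14:51773591-51773840 (minus) for Ang4, chr9:7691840-7692089 (plus) for Mmp7, chr1:173277757-173278006 (minus) for Mptx2, chr1:171535295-171535544 (minus) for Itln1, chr10:117282273-117282522 (minus) for Lyz2 and chr1:174330268-174330517 (plus) for Mptx1.
Lyz1: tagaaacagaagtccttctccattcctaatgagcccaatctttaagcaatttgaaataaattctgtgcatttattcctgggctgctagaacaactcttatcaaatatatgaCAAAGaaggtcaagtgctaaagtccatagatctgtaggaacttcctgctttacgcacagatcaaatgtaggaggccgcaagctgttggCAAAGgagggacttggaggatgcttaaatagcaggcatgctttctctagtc
Ang4: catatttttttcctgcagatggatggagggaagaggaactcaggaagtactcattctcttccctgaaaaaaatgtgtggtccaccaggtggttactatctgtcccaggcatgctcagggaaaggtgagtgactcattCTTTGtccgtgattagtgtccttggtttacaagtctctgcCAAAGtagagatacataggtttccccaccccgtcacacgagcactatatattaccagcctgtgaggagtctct
Mmp7: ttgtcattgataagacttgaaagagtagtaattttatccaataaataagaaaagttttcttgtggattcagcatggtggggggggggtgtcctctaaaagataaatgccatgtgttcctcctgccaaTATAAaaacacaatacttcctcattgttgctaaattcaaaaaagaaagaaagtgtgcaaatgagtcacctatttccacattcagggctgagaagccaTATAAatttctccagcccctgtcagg
Mptx2: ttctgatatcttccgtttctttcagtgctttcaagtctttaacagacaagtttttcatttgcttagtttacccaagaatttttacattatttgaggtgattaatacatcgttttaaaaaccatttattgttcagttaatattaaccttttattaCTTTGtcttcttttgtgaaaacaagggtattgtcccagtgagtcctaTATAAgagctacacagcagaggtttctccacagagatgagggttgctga
Itln1: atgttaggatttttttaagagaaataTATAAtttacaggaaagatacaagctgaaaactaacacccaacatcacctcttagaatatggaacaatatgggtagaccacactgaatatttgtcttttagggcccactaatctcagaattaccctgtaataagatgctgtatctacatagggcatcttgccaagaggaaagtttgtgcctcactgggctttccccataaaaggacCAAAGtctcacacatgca
Lyz2: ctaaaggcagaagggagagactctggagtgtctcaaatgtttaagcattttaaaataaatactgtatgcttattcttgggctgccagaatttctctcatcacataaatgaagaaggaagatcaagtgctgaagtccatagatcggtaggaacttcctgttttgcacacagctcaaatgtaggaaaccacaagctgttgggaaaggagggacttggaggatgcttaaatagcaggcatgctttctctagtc
Mptx1: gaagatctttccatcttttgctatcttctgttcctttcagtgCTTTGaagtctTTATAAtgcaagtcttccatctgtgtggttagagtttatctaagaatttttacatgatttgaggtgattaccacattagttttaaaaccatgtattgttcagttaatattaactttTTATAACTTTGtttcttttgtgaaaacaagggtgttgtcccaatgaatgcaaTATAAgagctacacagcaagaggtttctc

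A match to CTTTG was present in 4 of the 5 members, with 2 matches each in Lyz1 and Ang4, 1 each in Mptx2 and Itln1 and 0 in Mmp7. Of 32851 RefSeq windows of the same length, 48.6% held this motif. A match to TATAA was present in 3 of the 5, with 2 in Mmp7 and 1 each in Mptx2 and Itln1, against 22.8% of all windows. CANNTG, the E-box form bound by basic helix-loop-helix factors, was present in all 5 members and in 66.2% of all windows, and GATAA, the core read by GATA factors, in Lyz1 and Mmp7 and in 22.6% of all windows. In some windows matches overlap, as the TTATAA of Mptx1 is read on both strands. Lyz1 and Lyz2 were identical at 79.4% of 252 aligned positions, with 50 in an unbroken run, and Lyz2 lacked both CTTTG matches of Lyz1. Mptx2 and Mptx1 were identical at 72.4% of 272 aligned positions. The other 19 pairs among the 7 windows were identical at 43.4 to 48.7%. The matches and identities of Itln1 are those of a window that did not match its RefSeq gene start. A motif match is a description of the letters and not evidence of a bound site.

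After filtering, the libraries held 7025 to 7988 cells, 29731 in all, with 93090534 to 113758758 UMIs and medians of 9248 to 13341 UMIs per cell. Cells were sorted into classes by marker genes that include none of the 5 members. A cell was called Paneth-gated where the 26 alpha-defensin genes made up at least 20% of its UMIs, and the other classes were gated in the same way on their own markers. The gates gave 1967 Paneth-gated, 13397 goblet-gated, 2069 enteroendocrine-gated, 892 tuft-gated, 3005 stem-gated, 3944 dividing and 1965 enterocyte-gated cells. Cells passing several lineage gates (1298) and cells passing none (1161) were left out of the classes, and 33 were immune or stromal. Within 2-fold of the Paneth cut lay 1103 cells, 588 below it and 515 above. Pairs of libraries shared 20 to 32 cell barcodes. In Paneth-gated cells defensins took 67.7% and 67.8% of UMIs in 2D-1 and 2D-2, against 66.3% and 67.7% in 0D-1 and 0D-2. Markers of T cells, stroma, Brunner glands and red cells summed to at most 0.148 UMIs per 1000000 UMIs (CPM) there, of B and plasma cells to at most 1.40 CPM and of myeloid cells to at most 1.70 CPM. Mast cell markers summed to 14.0 to 19.0 CPM, all of it from Kit. Interferon-stimulated genes, in contrast, stood apart in 1 library: they summed to 261 and 48.7 CPM in Paneth-gated cells of 2D-1 and 2D-2, against 43.5 and 48.2 CPM in 0D-1 and 0D-2. In goblet-gated cells they summed to 2010 and 402 CPM in 2D-1 and 2D-2, against 428 and 463 CPM in 0D-1 and 0D-2. Genes that respond to cell handling, such as Fos and Jun, differed between the classes. They summed to 706 to 960 CPM in Paneth-gated and 5379 to 7284 CPM in goblet-gated cells. The part of the interferon-stimulated and handling genes in the results below was not tested.

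All 5 genes were highest in Paneth-gated cells in every library, far above their level in absorptive cells. Levels are given as CPM of all UMIs summed over a class. In 3′ libraries these count transcript ends and are not scaled by transcript length. Lysozyme was the most abundant, with Lyz1 at 45337 and 48028 CPM in Paneth-gated cells of 2D-1 and 2D-2, against 52174 and 51700 CPM in 0D-1 and 0D-2. The lectin gene Itln1 came close, at 36518 and 43466 CPM in 2D-1 and 2D-2, against 42742 and 42274 CPM in 0D-1 and 0D-2. These were the most abundant of the 5 in all 4 libraries. Mptx2 stood at 13564 and 11816 CPM in 2D-1 and 2D-2, against 13085 and 15702 CPM in 0D-1 and 0D-2. Ang4 stood at 6867 and 7301 CPM in 2D-1 and 2D-2, against 9238 and 8268 CPM in 0D-1 and 0D-2. Mmp7 was the least abundant, at 2828 and 2447 CPM in 2D-1 and 2D-2, against 2261 and 2622 CPM in 0D-1 and 0D-2. The order Mptx2, Ang4, Mmp7 held in all 4 libraries without overlap, and Itln1 lay below Lyz1 in each of them.

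**Figure D1:**
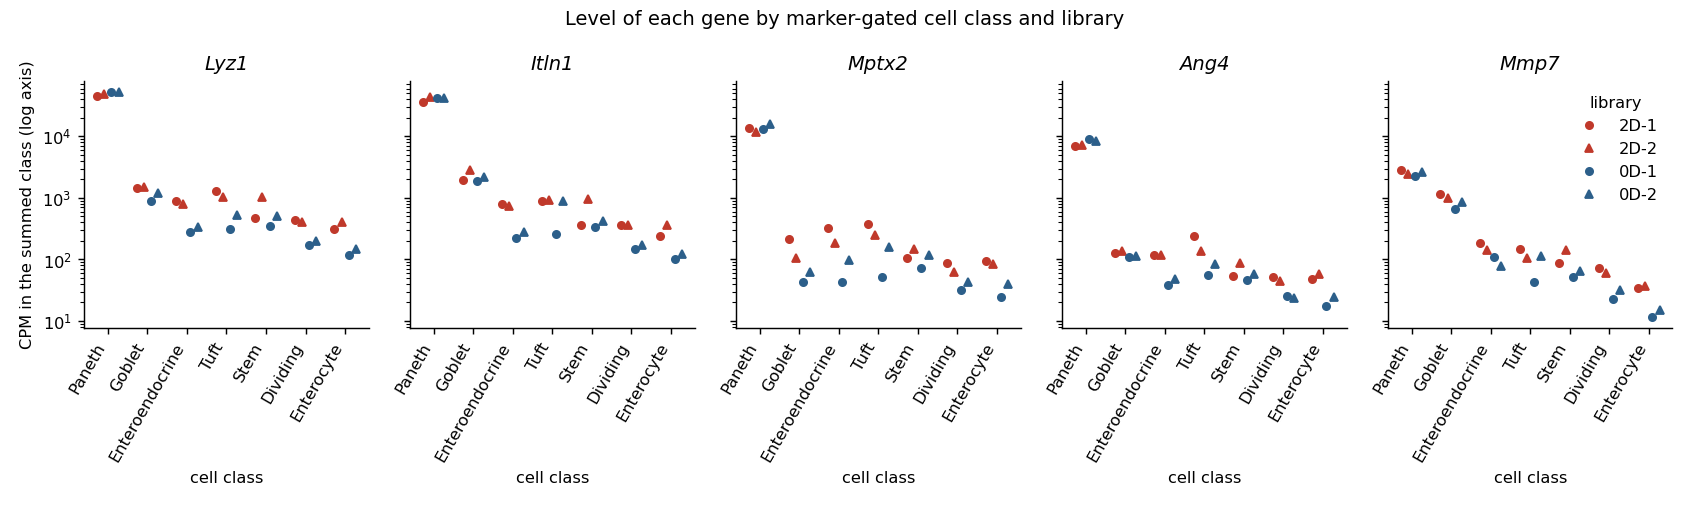
CPM of each gene (log axis) in the summed cells of 7 marker-gated classes, with 1 point per library (2D red, left; 0D blue, right). Paneth-gated cells are highest for every gene, and goblet-gated cells stand clearly above the remaining classes for Mmp7 and Itln1 but not for Mptx2.

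Within each library the goblet-gated class came second for Mmp7, Itln1 and Lyz1. Its range over libraries stood clear of every lower class for Mmp7 and Itln1, whereas for Lyz1 it overlapped the tuft-gated range, 311 to 1298 CPM. In goblet-gated cells Mmp7 had 1157 and 982 CPM in 2D-1 and 2D-2, against 661 and 857 CPM in 0D-1 and 0D-2. Itln1 had 1937 and 2827 CPM there in 2D-1 and 2D-2, against 1865 and 2226 CPM in 0D-1 and 0D-2. Lyz1 had 1464 and 1488 CPM in 2D-1 and 2D-2, against 890 and 1202 CPM in 0D-1 and 0D-2. Of the 3, Mmp7 came closest to its own level in Paneth-gated cells. The goblet-gated range of Ang4, 111 to 136 CPM, overlapped those of enteroendocrine-gated cells (38.4 to 119 CPM) and tuft-gated cells (55.8 to 242 CPM). Mptx2 spanned 43.7 to 215 CPM in goblet-gated, 43.8 to 324 CPM in enteroendocrine-gated and 52.8 to 381 CPM in tuft-gated cells. Enterocyte-gated cells were taken as the absorptive class that should lack all 5. They held 119 to 403 CPM of Lyz1, 103 to 362 of Itln1, 24.5 to 94.5 of Mptx2, 17.7 to 57.9 of Ang4 and 11.8 to 37.1 of Mmp7.

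Paneth-gated cells held the large majority of the transcripts of 4 of the genes, and about as many as all other cells together for Mmp7. Paneth-gated cells held 85.0% and 81.9% of all member UMIs in 2D-1 and 2D-2, against 84.5% and 83.3% in 0D-1 and 0D-2. For Mptx2 their share was 90.1 to 93.4% over the 4 libraries, and for Lyz1 84.7 to 87.2%. For Mmp7 it was 44.6 to 55.6%, with another 30.8 to 45.6% in goblet-gated cells. Matrilysin transcripts were therefore split between both secretory classes in every library. With the gate cuts halved, the mean share over libraries was 77.2% in place of 83.7%.

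In droplet data, RNA released from broken cells can add UMIs to every droplet. No empty-droplet profile was measured here, so the ratio of each gene to the defensins was set against that of Paneth-gated cells of the same library. In enterocyte-gated cells it was 1.04 to 1.17 times the Paneth ratio for Lyz1, 1.05 to 1.14 for Itln1, 0.893 to 1.18 for Mptx2 and 0.913 to 1.20 for Ang4. For these 4 genes, members and defensins thus stood in nearly the Paneth proportion in enterocyte-gated cells. Their levels there are not taken as evidence of expression by those cells. The source of these UMIs was not tested. Mmp7 was 2.03 to 2.48 times the Paneth ratio in enterocyte-gated cells, 3.26 to 4.23 in stem-gated cells and 3.96 to 9.70 in enteroendocrine-gated cells, so its pool outside the Paneth gate was not in the Paneth proportion. In goblet-gated cells the ratio was 17.2 to 24.2 times that of Paneth-gated cells for Mmp7, 2.23 to 3.78 for Itln1 and 1.34 to 1.67 for Lyz1. It was 0.791 to 0.996 for Ang4 and 0.277 to 0.666 for Mptx2. A ratio above 1 was not particular to goblet-gated cells. In stem-gated cells it was 1.14 to 1.42 for Lyz1 and 1.33 to 1.44 for Itln1. In dividing cells it was 1.18 to 1.31 for Lyz1 and 1.25 to 1.37 for Itln1. The goblet-gated range of Lyz1 thus overlapped that of stem-gated cells, while that of Itln1 lay above it.

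The goblet values depend on which defensin is the yardstick. Defa24 made up 65.6 to 77.4% of defensin UMIs in goblet-gated cells, against 47.8 to 48.8% in enterocyte-gated and 44.1 to 46.0% in Paneth-gated cells. Set against Defa30 alone, a comparison chosen after seeing the data, Mptx2 in goblet-gated cells was 0.955 to 1.27 times the Paneth ratio. Ang4 was then 1.51 to 3.46, Lyz1 2.58 to 5.79, Itln1 4.25 to 13.1 and Mmp7 32.8 to 83.5 times the Paneth ratio. In stem-gated cells Lyz1 was 1.17 to 2.06 and Itln1 1.30 to 2.15 times the Paneth ratio on the same yardstick.

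**Figure D2:**
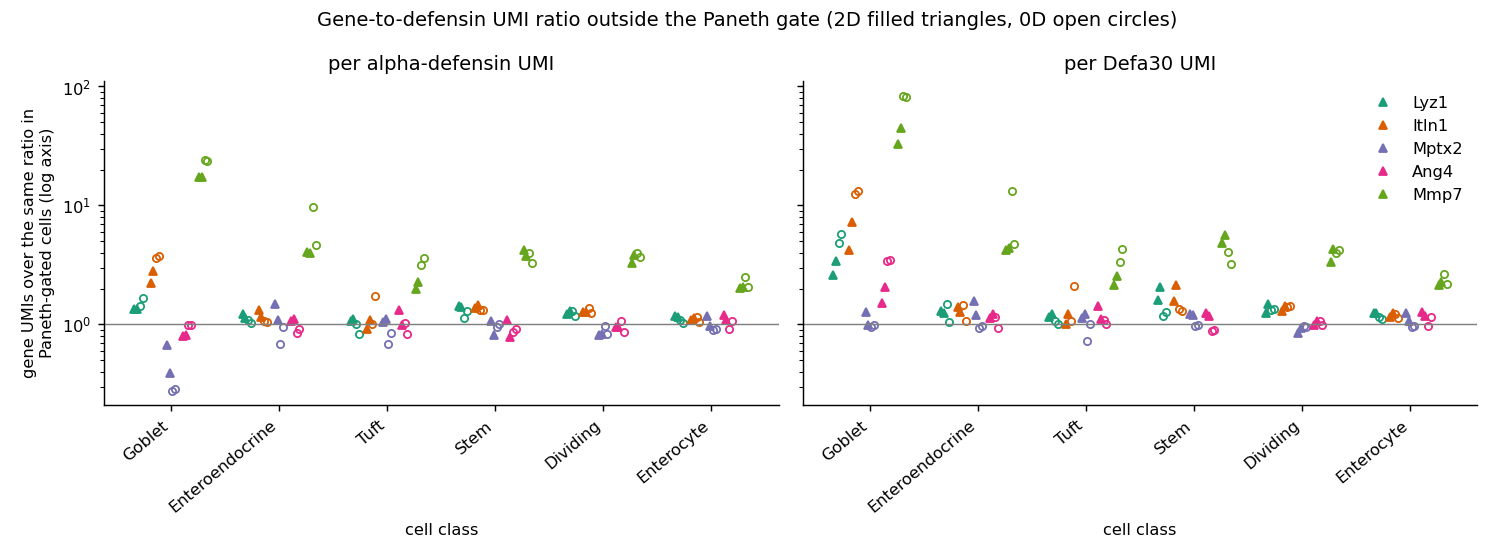
UMIs of each gene per alpha-defensin UMI (left) or per Defa30 UMI (right), divided by the same ratio in Paneth-gated cells of that library (log axis, grey line at 1), for 6 classes; 2D libraries are filled triangles and 0D libraries open circles. Most points lie near 1, and Mmp7 lies above it everywhere. Itln1 and Lyz1 lie above it in both panels in every class but tuft-gated cells. Ang4 in goblet-gated cells lies above it in the Defa30 panel.

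The share of cells with at least 1 UMI was read at a fixed depth. After thinning every cell to 2000 UMIs, Mmp7 was found in 72.2% and 62.5% of goblet-gated cells of 2D-1 and 2D-2, against 50.1% and 56.1% in 0D-1 and 0D-2. In enterocyte-gated cells, taken as the class that should lack it, Mmp7 was found in 2.43 to 5.56% of cells. For Itln1 the goblet-gated shares were 53.5 to 73.0%, against 19.6 to 43.5% of enterocyte-gated cells. For Lyz1 they were 49.3 to 71.0%, against 21.9 to 50.4%, ranges that overlap. Mptx2 was found in 7.10 to 29.1% of goblet-gated and 5.02 to 18.1% of enterocyte-gated cells, which overlap too. Cells under 2000 UMIs were left out, 354 goblet-gated in 2D against 161 in 0D and 49 enterocyte-gated in 2D against 54 in 0D. Without thinning, at median depths of 7343 to 12804 UMIs in goblet-gated and 11372 to 18801 UMIs in enterocyte-gated cells, the shares for Mmp7 were 75.9 to 88.3% and 13.1 to 33.2%.

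In edgeR's quasi-likelihood test with library as a block, all 5 genes were higher in goblet-gated than in enterocyte-gated cells, among 72.8% of 12446 genes that differed between these classes (40.2% higher in goblet-gated cells). Mmp7 was higher by 5.35 on the log2 scale (SE 0.19), Itln1 by 3.57 (SE 0.23) and Lyz1 by 2.49 (SE 0.18). Ang4 was higher by 1.85 (SE 0.20) and Mptx2 by 0.74 (SE 0.10). The adjusted p in edgeR ran from 2.66e-10 for Mmp7 to 3.78e-05 for Mptx2. A difference between these classes was thus common, and a call alone sets no member apart. Within goblet-gated cells that held under 1% defensin UMIs, a choice made after seeing the data, the edgeR differences were 4.79 for Mmp7, 2.22 for Itln1, 1.14 for Lyz1 and 1.04 for Ang4, all still past the threshold. Mptx2 then stood at -0.28 (adjusted p = 0.104 in edgeR), the opposite side of 0. This cut was applied to the goblet-gated side alone. In every library it removed goblet-gated cells with higher Mptx2 than those kept, so the change of sign cannot be read as a test.

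Goblet-gated cells differed widely in how many defensin UMIs they held, up to the 20% at which the Paneth gate begins. Itln1 in cells under 0.5% defensin UMIs was at 505 and 906 CPM in 2D-1 and 2D-2, against 666 and 795 CPM in 0D-1 and 0D-2. In cells of 5 to 20% it was at 10906 and 13808 CPM in 2D-1 and 2D-2, against 15631 and 16962 CPM in 0D-1 and 0D-2. Mmp7 moved less, at 744 and 572 CPM in 2D-1 and 2D-2, against 432 and 570 CPM in 0D-1 and 0D-2, in cells under 0.5%. In cells of 5 to 20% defensin UMIs Mmp7 was at 2961 and 2640 CPM in 2D-1 and 2D-2, against 2426 and 3089 CPM in 0D-1 and 0D-2. In each library that was above the Mmp7 level of Paneth-gated cells. Mptx2 stayed far below its Paneth level even there, at 1130 and 387 CPM in 2D-1 and 2D-2, against 307 and 286 CPM in 0D-1 and 0D-2. Cells of 5 to 20% defensin UMIs made up 11.6% and 11.7% of goblet-gated cells in 2D-1 and 2D-2, against 4.03% and 4.57% in 0D-1 and 0D-2. No doublet caller was run, so droplets that held a Paneth and a goblet cell may be among them. Depth differed between these bins in 2D. In goblet-gated cells of 5 to 20% the median UMIs per cell were 4353 and 5099 in 2D-1 and 2D-2, against 12082 and 12690 in 0D-1 and 0D-2. In those under 0.5% they were 12566 and 11071 in 2D-1 and 2D-2, against 11631 and 13481 in 0D-1 and 0D-2. The part of depth in these values was not tested.

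**Figure D3:**
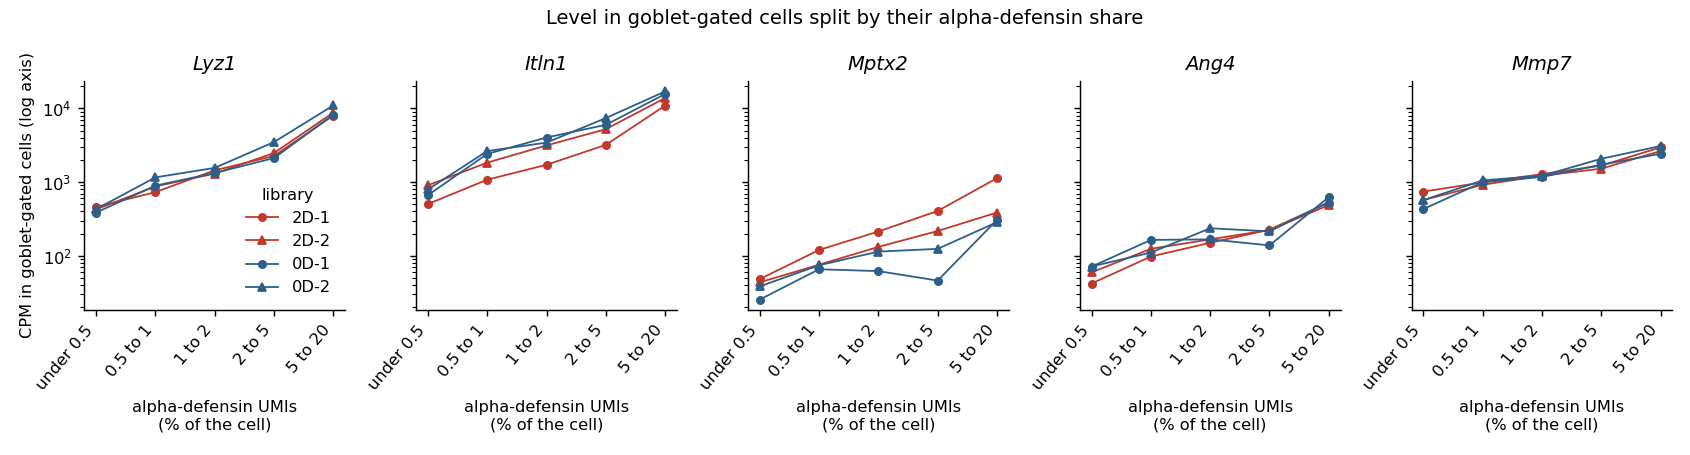
CPM of each gene (log axis) in goblet-gated cells split by the share of their UMIs from alpha-defensins, with 1 line per library (2D red, 0D blue). Lyz1 and Itln1 climb steeply with the defensin share, Mmp7 climbs least, and Mptx2 is highest in 2D-1 in every bin.

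The first comparison of conditions took all cells of a library together, and there all 5 genes were higher in both 2D libraries than in both 0D libraries. Lyz1 was at 10819 and 13688 CPM in 2D-1 and 2D-2, against 7113 and 6914 CPM in 0D-1 and 0D-2. Itln1 was at 9091 and 13299 CPM in 2D-1 and 2D-2, against 6254 and 6259 CPM in 0D-1 and 0D-2. Mptx2 was at 3124 and 3147 CPM in 2D-1 and 2D-2, against 1678 and 1960 CPM in 0D-1 and 0D-2. The protease gene followed the secreted factors. Mmp7 was at 1056 and 1184 CPM in 2D-1 and 2D-2, against 538 and 686 CPM in 0D-1 and 0D-2. Ang4 was at 1588 and 1988 CPM in 2D-1 and 2D-2, against 1228 and 1056 CPM in 0D-1 and 0D-2. The groups did not overlap for any of the 5, and 16.3% of the 15454 genes tested had both 2D values above both 0D values (38.2% had both below).

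In edgeR the log2 changes in all cells were 0.93 for Lyz1, 0.97 for Itln1, 0.90 for Mptx2, 0.99 for Mmp7 and 0.77 for Ang4, with SE of 0.15 to 0.27. None of them passed, with adjusted p of 0.151 to 0.182, and neither did any other gene (0 of 15454, 0%). An unadjusted p under 0.05 was reached by 3132 genes, the 5 members among them. DESeq2 called 765 genes, including all 5 members (adjusted p 5.53e-07 to 0.00900 in DESeq2). Leaving out 2D-1 or leaving out 2D-2 also brought all 5 past the threshold, with 4045 and 1915 genes called in all. In those fits the lone library of a group is assumed to vary like the other group.

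Paneth-gated cells themselves made up 7.44% and 9.59% of cells in 2D-1 and 2D-2, against 4.50% and 4.73% in 0D-1 and 0D-2. The 95% exact binomial intervals, which cover counting error only, were 6.84 to 8.08% and 8.95 to 10.3% in 2D-1 and 2D-2, against 4.04 to 4.99% and 4.24 to 5.24% in 0D-1 and 0D-2. Over libraries the exact two-sided permutation test gave p = 0.333, the smallest that 2 against 2 libraries allow. Their share of all UMIs was 22.4% ± 2.39 in 2D and 11.8% ± 0.160 in 0D (SD, n = 2 each), a ratio of 1.91. In the all-cell sums, more cells of a type and more RNA per cell cannot be told apart. Median UMIs per Paneth-gated cell were 42086 and 28743 in 2D-1 and 2D-2, against 38916 and 38519 in 0D-1 and 0D-2.

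**Figure D4:**
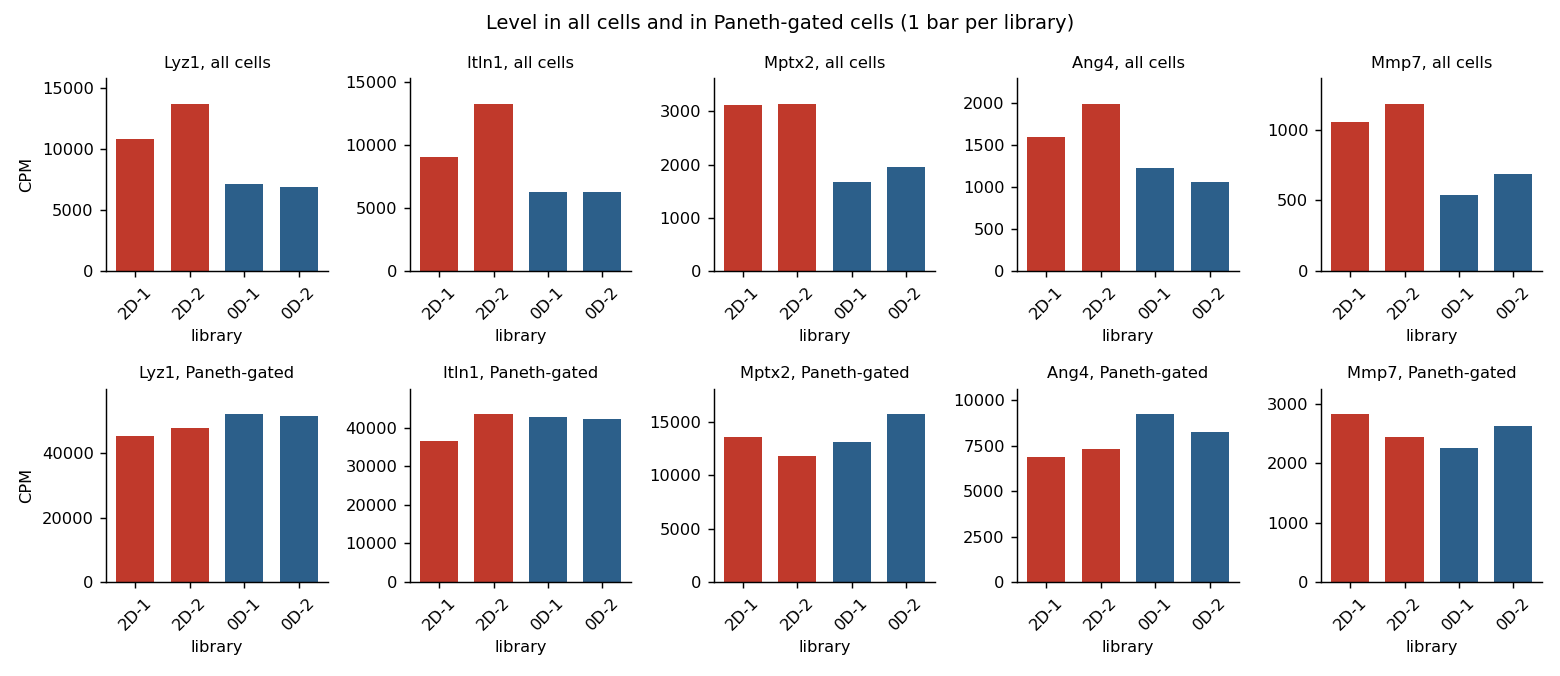
CPM of each gene per library in all cells (top) and in Paneth-gated cells (bottom), 2D in red on the left and 0D in blue on the right, with linear axes from 0. Both 2D bars exceed both 0D bars for all 5 genes in all cells, while in Paneth-gated cells Lyz1 and Ang4 are lower in both 2D libraries and the other 3 overlap.

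Within Paneth-gated cells no member changed past the threshold. The 2D mean of Ang4 was 7084 ± 307 CPM and the 0D mean 8753 ± 687 CPM (SD, n = 2 each). The 2D mean of Lyz1 was 46682 ± 1903 CPM and the 0D mean 51937 ± 335 CPM (SD, n = 2 each). For both, each 2D library was below each 0D library, as for 16.5% of the 10653 genes tested in this class. Mptx2, Itln1 and Mmp7 overlapped between the groups. The log2 changes in edgeR were -0.31 (SE 0.21) for Ang4, -0.16 (SE 0.27) for Lyz1, -0.20 (SE 0.24) for Mptx2, -0.094 (SE 0.27) for Itln1 and 0.094 (SE 0.20) for Mmp7. Adjusted p in edgeR was 0.808 for Ang4 and 0.905 to 0.966 for the others. In this class edgeR called 0 of 10653 genes (0%), with 749 at an unadjusted p under 0.05, and DESeq2 called 18, none of them a member.

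In goblet-gated cells the largest log2 change among the 5 was that of the pentraxin gene Mptx2. It was at 215 and 106 CPM in 2D-1 and 2D-2, against 43.7 and 62.8 CPM in 0D-1 and 0D-2, a log2 change of 1.48 (SE 0.29) with an adjusted p of 0.240 in edgeR. Both 2D libraries were above both 0D libraries for Mptx2, Lyz1, Mmp7 and Ang4, as for 25.5% of the 13323 genes tested, and Itln1 overlapped. The log2 changes of the other 4 in edgeR were 0.42 for Lyz1, 0.41 for Mmp7, 0.17 for Ang4 and 0.17 for Itln1 (SE 0.16 to 0.32). edgeR called 0 of 13323 genes (0%), with 1263 at an unadjusted p under 0.05. DESeq2 called 77, Mptx2 among them (adjusted p 8.20e-06 in DESeq2). Leaving out 1 library changed these calls. Without 2D-1, edgeR called 569 genes, among them Mptx2 (log2 1.02, adjusted p 0.000455), Lyz1 (log2 0.54, adjusted p 0.0385), Itln1 (log2 0.50, adjusted p 0.0287) and Ang4 (log2 0.31, adjusted p 0.0287). Without 2D-2 it called 4865 genes, among them Mptx2 (log2 1.82, adjusted p 6.05e-08) and Mmp7 (log2 0.42, adjusted p 0.0130). Without 0D-2 edgeR called 71 genes and of the members Mptx2 alone (log2 1.77, adjusted p 0.00128), and without 0D-1 it called 67 genes and no member (Mptx2 log2 1.22, adjusted p 0.136). The highest Mptx2 level was that of 2D-1, whose goblet-gated cells also differed in quality. Their median mitochondrial share was 8.505% in 2D-1 and 3.81% in 2D-2, against 3.76% and 3.45% in 0D-1 and 0D-2. Their median UMIs per cell were 7343 in 2D-1 and 9183 in 2D-2, against 11125 and 12804 in 0D-1 and 0D-2. The part of these in the result was not tested. A higher 2D mean of Mptx2 was also seen in other classes outside the Paneth gate, where no test was run. The ratio of the 2D mean to the 0D mean was 3.01 in goblet-gated, 3.65 in enteroendocrine-gated, 2.97 in tuft-gated, 2.79 in enterocyte-gated, 2.01 in dividing and 1.30 in stem-gated cells. Outside the goblet gate this was not particular to Mptx2. In enteroendocrine-gated cells Lyz1 was at 904 and 787 CPM in 2D-1 and 2D-2, against 278 and 341 CPM in 0D-1 and 0D-2. Defensins took 1.09% and 0.989% of UMIs there in 2D-1 and 2D-2, against 0.326% and 0.436% in 0D-1 and 0D-2.

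The difference between the 2 classes was tested directly, as the change in Paneth-gated cells minus the change in goblet-gated cells. For Mptx2 it was -1.61 (SE 0.28, adjusted p = 0.00053 in edgeR), the single member among 23 of 13035 genes (0.176%) that passed, of which 0.138% of all tested were lower and 0.0384% higher. Of those 23 genes, 14 were alpha-defensins of the Paneth gate, all 14 in the same direction as Mptx2. Defensins took 1.61% and 1.57% of UMIs in goblet-gated cells of 2D-1 and 2D-2, against 0.800% and 0.942% in 0D-1 and 0D-2. For the other members the differences were -0.57 (SE 0.28) for Lyz1, -0.44 (SE 0.26) for Ang4, -0.30 (SE 0.25) for Mmp7 and -0.20 (SE 0.28) for Itln1, with adjusted p of 0.636 to 0.894 in edgeR. In goblet-gated cells under 1% defensin UMIs, Mptx2 was at 70.5 and 52.4 CPM in 2D-1 and 2D-2, against 29.3 and 43.3 CPM in 0D-1 and 0D-2 (log2 0.65, SE 0.19, adjusted p = 0.524 in edgeR). The difference between the classes was then -0.86 (adjusted p = 0.456 in edgeR). This split kept 54.6% and 59.6% of goblet-gated cells in 2D-1 and 2D-2, against 83.2% and 79.4% in 0D-1 and 0D-2, and was applied to the goblet-gated side alone. It thus selects on a share that itself differed between the groups, and the smaller difference cannot be read as a test. The call was lost with at most 10% mitochondrial UMIs per cell (-1.49, adjusted p = 0.0647 in edgeR), without 0D-1 (-1.54, adjusted p = 0.773 in edgeR) and without 0D-2 (-1.67, adjusted p = 1 in edgeR).

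Members and defensins were both at higher levels in enterocyte-gated cells of 2D. Defensins took 0.400% and 0.496% of UMIs in 2D-1 and 2D-2, against 0.139% and 0.188% in 0D-1 and 0D-2. The 2D mean of Lyz1 was 358 ± 64.2 CPM and the 0D mean 134 ± 21.5 CPM (SD, n = 2 each), a ratio of 2.67. Ratios for the other 4 members were 2.51 to 2.79, and that of the defensins was 2.74. Members and defensins thus differed by nearly the same factor, and no test was run there.

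Single Paneth-gated cells differed far more in the pentraxin gene Mptx2 than in any other member. Lyz1 and Itln1 were detected in 100% of Paneth-gated cells in every library. The 75th percentile of Itln1 was 1.55 to 1.68 times its 25th percentile, that of Mmp7 1.76 to 1.81 times, that of Lyz1 1.85 to 1.96 times and that of Ang4 2.16 to 2.73 times. For Mptx2 it was 4.53 to 7.47 times. The median cell had 10099 and 8234 CPM of Mptx2 in 2D-1 and 2D-2, against 8962 and 11630 CPM in 0D-1 and 0D-2, while its 5th percentile was 54.7 and 100 CPM in 2D-1 and 2D-2, against 29.8 and 212 CPM in 0D-1 and 0D-2. In 3 of the 4 libraries, all but 0D-2, that 5th percentile was below the level of the summed goblet-gated cells. These cells were not thinned, and Mptx2 was detected in 95.3 to 98.5% of them. The 5th percentile thus rests on few UMIs per cell, while the goblet-gated level is a sum over many cells.

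**Figure D5:**
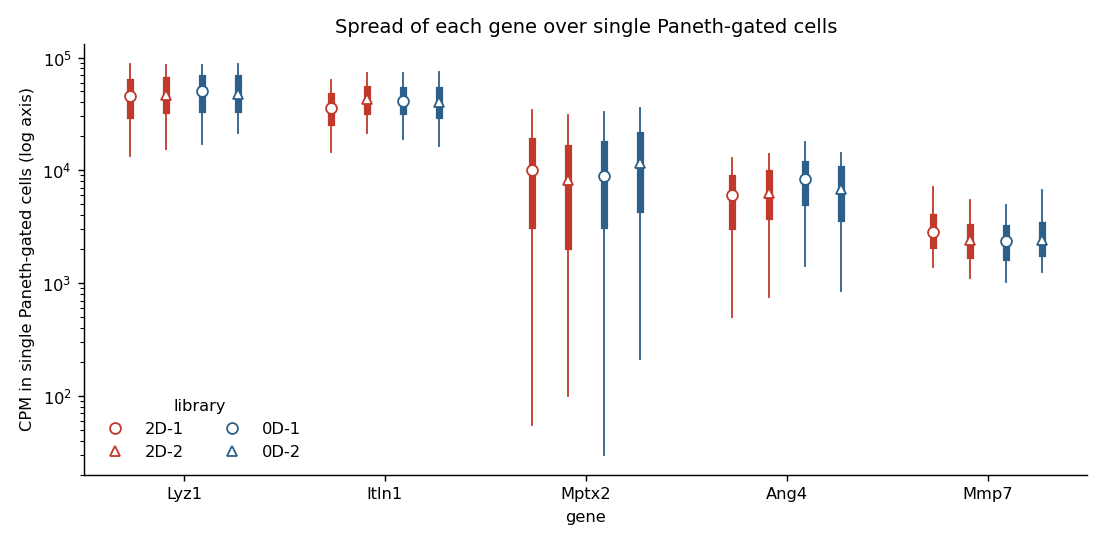
CPM of each gene in single Paneth-gated cells (log axis) by library, with the median as a marker, the 25th to 75th percentile as a thick line and the 5th to 95th percentile as a thin line; 2D is red and left, 0D blue and right. The lines of Mptx2 are by far the longest in all 4 libraries, and those of Itln1 and Mmp7 are short.

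The members also varied together in pairs. Across Paneth-gated cells of a library, thinned to 5000 UMIs each, Pearson's r of log2(CPM + 200) was 0.30 to 0.48 for Ang4 with Mptx2 and 0.29 to 0.37 for Lyz1 with Itln1. For Mmp7 the sign depended on the partner in all 4 libraries, with -0.26 to -0.15 for Ang4 and -0.24 to -0.085 for Mptx2, but 0.079 to 0.28 for Itln1 and 0.028 to 0.13 for Lyz1. These are descriptions over 293 to 715 cells a library that share a library and its free RNA. Among 263 abundant genes, Mmp7 went most closely with Spink4, a secreted trypsin-inhibitor-family gene (mean r 0.51 over libraries), and with Defa17 (0.46). It ran opposite to Gm14851 (-0.37) and Defa30 (-0.33). Mptx2 showed the reverse, with Gm14851 at 0.33 and Spink4 at -0.33.

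Mmp7 and Mptx2 also differed with the RNA content of the cells. In Paneth-gated cells of 40000 or more UMIs, Mmp7 was at 2551 and 2188 CPM in 2D-1 and 2D-2, against 2022 and 2331 CPM in 0D-1 and 0D-2. In cells of 5000 to under 20000 UMIs it was at 4845 and 3377 CPM in 2D-1 and 2D-2, against 3854 and 4269 CPM in 0D-1 and 0D-2. Mmp7 was thus lower in the RNA-rich cells than in this bin in every library. The relation was not monotonic, since in the 23 to 51 cells a library under 5000 UMIs Mmp7 was at 3459 and 2929 CPM in 2D-1 and 2D-2, against 2709 and 2623 CPM in 0D-1 and 0D-2. Mptx2 went the other way, at 14333 and 13816 CPM in the RNA-rich cells of 2D-1 and 2D-2, against 14692 and 16329 CPM in those of 0D-1 and 0D-2, and at 10611 and 8578 CPM in the cells of 5000 to under 20000 UMIs in 2D-1 and 2D-2, against 7021 and 10215 CPM in 0D-1 and 0D-2. Ang4 was also higher in the RNA-rich cells of all 4 libraries. Defensins took 68.4 to 70.1% of UMIs in the RNA-rich cells and 50.9 to 57.6% in the cells of 5000 to under 20000 UMIs. CPM is a share of all UMIs, so a larger defensin share leaves less for every other gene. Its part in the lower Mmp7 values was not tested.

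Across the 28 sums of 7 classes in 4 libraries, the genes most like the members in log2(CPM + 1), beside members and gate genes, were Clps, Gm7861 and Pnliprp2. Clps encodes colipase, a cofactor of pancreatic lipase, and Pnliprp2 a lipase of the pancreatic family. Their mean Pearson r with the 5 members was 0.96, 0.94 and 0.94. The members' own pairs ran from 0.99 for Lyz1 with Ang4 to 0.78 for Mmp7 with Mptx2. These sums share libraries, depth and free RNA, so the values describe likeness only. The genes most like Mmp7 alone were Slc1a4, Nupr1 and Copz2, at 0.95 each.

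Most close relatives of the members were scarce in Paneth-gated cells. Lyz2 was at 2.66 and 3.56 CPM in Paneth-gated cells of 2D-1 and 2D-2, against 4.07 and 3.40 CPM in 0D-1 and 0D-2. Of the 91-base stretches in the last 600 bases of Lyz1 transcripts, 2.75% also occur in Lyz2, and none of those of the other 4 members occur in another gene. Mptx1 was at 1.70 to 7.12 CPM in Paneth-gated and 2.25 to 19.5 CPM in goblet-gated cells. Ang, another angiogenin-family gene, was at 102 to 130 CPM in Paneth-gated and 142 to 194 CPM in goblet-gated cells. The metalloproteinase genes Mmp14 and Mmp15 reached at most 7.35 CPM in Paneth-gated cells, and Ang2, Ang6, Mmp10 and Mmp13 had 0 UMIs there.

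Other genes of Paneth cell biology were read in the Paneth-gated comparison of 2D with 0D. In edgeR, 0 of the 17 tested genes of Paneth fate and niche passed (median log2 change -0.083), against a median of 0.00310 over all genes tested. Kit, the stem cell factor receptor, had the smallest p of that list (log2 -0.37, SE 0.13, adjusted p = 0.662 in edgeR). Of 20 tested genes of granule formation and secretory autophagy 0 passed (median 0.037), with Creb3l1, a transcription factor of secretory cells, at 0.36 (SE 0.15, adjusted p = 0.700 in edgeR). Of 16 tested genes of other Paneth secretions 0 passed (median 0.031). Reg3b, an antimicrobial lectin, was at 1356 and 330 CPM in 2D-1 and 2D-2, against 517 and 307 CPM in 0D-1 and 0D-2, so its log2 change of 1.02 (SE 0.49, adjusted p = 0.716 in edgeR) rested on 2D-1, the library with high interferon-stimulated genes. Of 8 tested genes of the type 2 cytokine response 0 passed (median -0.12).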

How the data were processed

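The authors deposited raw UMI counts per gene and barcode for 4 libraries. They were made with Cell Ranger 2.1.1 on mm10 per the submitters' processing notes, whereas the file headers name cellranger 7.0.0. Neither source tells how intron reads were treated or names the gene annotation. The smallest deposited barcode had 500 UMIs. The files carry no cell type names, so cell classes are rebuilt here. A cell needed 500 genes and no more than 20% mitochondrial UMIs (14.1 to 26.1% of barcodes were removed for the mitochondrial share). Gates used UMIs per 10000 summed over marker lists: Paneth 2000, goblet 100, enterocyte and enteroendocrine 50, tuft and stem 20, dividing 10. The cuts were read from the marker sums without the members' values. Cells passing several lineage gates were left out, and no doublet caller was run.

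Counts were summed per library and class and tested with edgeR 4.0.16 in R 4.3.3 (quasi-likelihood, filterByExpr, TMM, Benjamini-Hochberg over all genes tested, threshold 0.05); DESeq2 1.42.0 was an alternative. SE were derived from the log2 change and its F statistic. Tests of classes used library as a block. The fits were tested on simulated data. Alternatives covered scaling, filters, gate cuts, the replicate block and each library left out; the split of goblet-gated cells at 1% defensins and the Defa30 ratio were added after seeing the data. Members and lists were chosen with earlier results of these data known. The text names all members, their annotated relatives, the 3 genes most like them and up to 4 genes per list by smallest p; Gm14851, Defa24, Defa30, Defa17 and Spink4 were singled out after their values were seen. Python 3.11.15 was used with numpy 2.4.6, scipy 1.17.1, pandas 2.3.3, Biopython 1.88 and matplotlib 3.10.9.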

Additional observations from a re-analysis of the deposited data

Results flagged for a closer look

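The change of Mptx2 between 2D and 0D differed between Paneth-gated and goblet-gated cells by -1.61 on the log2 scale, Paneth-gated minus goblet-gated (SE 0.28, adjusted p = 0.00053 in edgeR). The test of the difference itself marked it for a closer look. In Paneth-gated cells both groups overlapped. In goblet-gated cells both 2D libraries were above both 0D libraries, as for 25.5% of the 13323 genes tested there. A higher 2D mean was not limited to goblet-gated cells, with ratios of the 2D mean to the 0D mean of 3.01 there, 3.65 in enteroendocrine-gated, 2.97 in tuft-gated and 2.79 in enterocyte-gated cells. In the last 3 classes Lyz1 and the defensins were also higher in both 2D libraries than in both 0D libraries. The share of all genes that did so was not counted in these classes. The share of defensin UMIs in goblet-gated cells moved in the same direction, and its part in the result was not tested. Defa30 was at 1524 and 1243 CPM there in 2D-1 and 2D-2, against 439 and 542 CPM in 0D-1 and 0D-2. Defa24 was at 10554 and 11069 CPM in 2D-1 and 2D-2, against 6193 and 7281 CPM in 0D-1 and 0D-2. Per Defa30 UMI, a yardstick chosen after seeing the data, Mptx2 was 1.27 and 0.993 times the Paneth ratio in 2D-1 and 2D-2. It was 0.955 and 0.997 times in 0D-1 and 0D-2. In goblet-gated cells under 1% defensin UMIs the difference was -0.86 (adjusted p = 0.456 in edgeR), but that split removes more cells from 2D than from 0D.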

How the results depend on the processing

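Numbers of called genes moved with the test and the libraries. In all cells DESeq2 called 765 genes, and leaving out each library in turn gave 0 to 4045. In Paneth-gated cells DESeq2 called 18 genes, no filter on low counts gave 178, doubled gate cuts gave 3 and leaving out a library gave 0 to 128. In goblet-gated cells DESeq2 called 77, no filter gave 203, at most 10% mitochondrial UMIs gave 1 and leaving out a library gave 67 to 4865. For the difference between both classes no filter gave 35 genes, at most 10% mitochondrial UMIs 14, goblet-gated cells under 1% defensins 4 and leaving out a library 4 to 1276. Goblet-gated against enterocyte-gated calls stayed between 8002 and 9807 over all 11 alternatives. The share of member UMIs in Paneth-gated cells was 77.2% with halved gate cuts, where the main value was 83.7%. The difference in Paneth-gated share of cells was 3.91 percentage points, and 2.83 to 4.98 without each library in turn.

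Replicate numbers are shared between the groups but pair nothing by the labels. Same-numbered libraries deviated together with r of 0.065, 0.102 and 0.00725 in all, Paneth-gated and goblet-gated cells. With the replicate number as a block, calls were 0 in all cells, 175 in Paneth-gated and 86 in goblet-gated cells, where Mptx2 passed (log2 1.45, adjusted p = 0.00600 in edgeR).

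Signs turned for the following values. In Paneth-gated cells, leaving out each library in turn gave -0.068 to 0.273 for Mmp7 (lowest without 0D-1), -0.383 to 0.00724 for Mptx2 (highest without 0D-2) and up to 0.062 for Itln1 (without 2D-1), whose lowest value was -0.278. In goblet-gated cells Itln1 ran from -0.27 without 2D-2 to 0.50 without 2D-1, where it passed (adjusted p = 0.0287 in edgeR). Its difference between the classes ran from -0.449 without 2D-1 to 0.019 without 2D-2. Under 1% defensins, goblet-gated Itln1 was -0.086 and Ang4 -0.28, the difference of Itln1 between the classes was 0.056, and Mptx2 in goblet-gated against enterocyte-gated cells was -0.28. The causes were not tested. Without TMM the median log2 change of all genes in all cells was -0.11, and without a filter that of goblet-gated against enterocyte-gated cells was 0.34.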

Other observations

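Cells that passed no gate, 298 and 204 in 2D-1 and 2D-2, against 374 and 285 in 0D-1 and 0D-2, held more lysozyme per defensin UMI than Paneth-gated cells. The Lyz1-to-defensin ratio was 2.33 and 2.43 times that of Paneth-gated cells in 2D-1 and 2D-2, against 1.97 and 2.72 times in 0D-1 and 0D-2. For Mmp7 it was 8.43 and 10.5 times in 2D-1 and 2D-2, against 7.24 and 11.51 times in 0D-1 and 0D-2. Mptx2 lay below the Paneth ratio, at 0.666 and 0.451 times in 2D-1 and 2D-2, against 0.909 and 0.582 times in 0D-1 and 0D-2. The makeup of these cells was not tested.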
